A study of Mus musculus with 40 samples.

Results

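The genes described here are 70 protein-coding mouse genes of collagens and the extracellular matrix. They comprise 44 collagen chain genes, which are the protein-coding genes of the count table whose symbol is Col, a number, the letter a and a second number, and 26 further matrix genes chosen by name. Those 26 are the small leucine-rich proteoglycans Dcn, Lum, Bgn and Prelp, the glycoproteins Fn1, Fbn1, Fbn2, Fbln1, Fbln2 and Fbln5, the matricellular genes Sparc, Postn and Tnc, the proteoglycan Vcan, the crosslinking enzymes Lox, Loxl1 and Loxl2, and the basement membrane genes Lama1, Lama2, Lama4, Lama5, Lamb1, Lamc1, Nid1, Nid2 and Hspg2. They were 70 of 55487 genes counted, of which 21897 were protein-coding.

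The study differentiated 1 line of mouse embryonic stem (ES) cells into cells resembling astrocytes, called ES-astrocytes, and into motor neurons, called ES-motor neurons, and asked how neuroinflammatory proteins acted on the glia and on the neurons lying on them. The non-commercial line came from B6.Cg-Tg(Hlxb9-GFP)1Tmj/J mice, in which the Hb9 promoter drives eGFP, and its embryoid bodies were patterned with retinoic acid and smoothened agonist. ES-astrocytes were expanded from passage 0 to passage 3 in serum-containing medium with FGFb and EGF on dishes coated with poly-L-ornithine and laminin, then treated with forskolin and stimulated, after which eGFP-sorted ES-motor neurons were plated on top. Both cell types were later separated by fluorescence-activated sorting, and polyadenylated RNA from about 200 cells of 1 type was sequenced as 1 library.

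The 40 libraries formed 10 groups of 4 biological replicates, labelled A to D, each from a separate vial of cells of a defined passage. ES-astrocytes were either unstimulated (control) or had received, for 24 h, IL-1α with TNF-α (the positive control of the study), C1Q with C5, IL-1β with IL-6, or TGF-β2. The ES-motor neuron groups are named by the stimulus of the ES-astrocytes beneath them, and the stimulating medium was still present when they were plated. The cell line, its transgene and the patterning were common to all groups. Expansion with FGFb and EGF and the forskolin treatment were steps of the ES-astrocytes, in every group, before the ES-motor neurons were plated on them. As a model these groups are limited to a single line, and the motor neuron gate depended on the Hb9 promoter. Libraries of control and IL-1α with TNF-α carried plate index 1, and those of the other 3 stimuli plate index 2, so that these 3 stimuli cannot be told apart from the plate index when set against control.

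As background, cells secrete the extracellular matrix as a network of fibres, sheets and gels: fibrillar collagens form tissue fibres, collagen IV with laminins, nidogens and perlecan forms basement membranes, and fibronectin, fibrillins and fibulins form microfibrils and elastic fibres. Small leucine-rich proteoglycans and matricellular proteins bind these fibres and regulate their assembly, and lysyl oxidases crosslink them. In the brain, fibrillar collagen and fibronectin are mostly kept to meninges and vessels, neural tissue itself holds hyaluronan with proteoglycans such as versican, and astrocytes are known to secrete SPARC and, after injury, other matrix proteins.

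Depth differed widely among libraries. In ES-astrocytes the total counts of replicates A to D were 7866943, 13384392, 2848750 and 6467280 in control. They were 14831839, 2535419, 2129286 and 2019196 with IL-1α and TNF-α, and 1659425, 10158932, 1510823 and 5056889 with C1Q and C5. In each of these 3 groups 1 or more libraries were several times as deep as the shallowest. They were 5309235, 4679458, 16054290 and 2141079 with IL-1β and IL-6, and 4166740, 10099902, 2787407 and 4661025 with TGF-β2. In ES-motor neurons the totals were 1280778, 19717324, 240859 and 2383502 in control, and 117344, 445874, 300549 and 112775 with IL-1α and TNF-α. The 4 ES-motor neuron libraries of IL-1α and TNF-α were all shallow, whereas the other groups mixed shallow and deep libraries. Totals were 6557, 1414904, 1146186 and 3285492 with C1Q and C5, 14329617, 80315, 6033138 and 146775 with IL-1β and IL-6, and 283205, 12606121, 1695346 and 1323310 with TGF-β2. A count of 3, taken as the limit of a count of 0, was worth 0.187 to 1.99 CPM (counts after scaling by library size) in ES-astrocytes and 0.152 to 458 CPM in ES-motor neurons, so a gene with no count in a shallow ES-motor neuron library was not detectable at this depth and may still have been present. Intervals and limits of this kind cover counting error only and not the spread between libraries. The reads carried no molecular identifiers, so copies of 1 molecule counted as separate reads and even the counting error may be larger. Levels below are CPM scaled by the TMM method (trimmed mean of M values) over the 40 libraries, a different scale from that of these values of 3 counts. On the TMM scale 1 count was 67.6 CPM in the shallowest library, C1Q and C5 A of the ES-motor neurons.

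The labelled cell types were checked against their defining markers. A list of 12 astrocyte and radial glia genes had 9 detected members in ES-astrocytes, with a summed level of 2442 CPM (1213 to 3954) led by Fabp7 at 1430 CPM, a fatty acid binding protein of radial glia. The 8 others were Slc1a3, Slc1a2, Gja1, Hes1, Sox2, Nfia, Vim and Sox9. Of these, Nfia (134 and 127 CPM) and Vim (545 and 467 CPM) were at similar levels in ES-astrocytes and ES-motor neurons, and Sox9 was lower in ES-astrocytes (79.0 and 266 CPM). The mature astrocyte markers Gfap, Aqp4 and Aldh1l1 had no count in any of the 20 ES-astrocyte libraries. The same list summed to 907 CPM in ES-motor neurons. A list of 8 motor neuron genes summed to 1571 CPM in ES-motor neurons, led by Mnx1 (the gene whose promoter drives eGFP) at 1055 CPM, and to 53.2 CPM in ES-astrocytes, where Mnx1 was at 3.43 CPM. A list of 9 neuronal genes was present in both cell types, with sums of 8293 CPM for the neurons and 3052 CPM for the glia, and Stmn2 was the most abundant in each (3161 and 974 CPM). The ES-astrocyte libraries therefore held both glial and neuronal transcripts, and the ES-motor neuron libraries held motor neuron transcripts at high level.

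Markers of other matrix-producing cells were measured in the same way. A list of 10 pericyte and smooth muscle genes had 7 detected in ES-astrocytes and summed to 60.8, 287 and 1419 CPM at its lowest, median and highest library, with Acta2 (smooth muscle actin, 266 CPM) and Tagln (57.9 CPM) leading and Rgs5, Kcnj8 and Abcc9 at 0. It was highest in control A. A list of 15 fibroblast, meningeal and mesenchymal genes had 12 detected and summed to 191, 469 and 843 CPM at its lowest, median and highest library. Of its mean of 505 CPM, Crabp2, a retinoic acid binding protein, held 497 CPM. Foxc2, Tbx18 and Meox1 were at 0, Pdgfra was counted in 1 library and Pdgfrb in 2, and the mesenchymal factor Prrx1 reached a mean of 4.48 CPM in 16 libraries. Endothelial genes summed to 0.944 CPM and cartilage genes to 7.89 CPM. Neural crest genes summed to 1195 CPM, of which 1192 CPM was Gap43, a growth cone gene that neurons also use, while Sox10 was at 0. Epithelial genes summed to 18 CPM (Foxa2 14.7 CPM), oligodendrocyte lineage genes to 5.39 CPM, microglial genes to 2.38 CPM (Aif1, Ptprc, Tyrobp and C1qa at 0) and pluripotency genes to 0.321 CPM. In ES-motor neurons the fibroblast list summed to 210 CPM and the smooth muscle list to 4.12 CPM. Whether cells of these types took part in the matrix levels that follow was not tested.

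Of the 70 genes, 66 had a count in some library, and 4 (Col9a1, Col15a1, Col19a1 and Postn, the gene of periostin) had none in any. Some ES-astrocyte library held 62 of the genes and some ES-motor neuron library 41, with 37 found in both. The 25 genes counted in ES-astrocytes alone were Bgn, Fbln2, Fbln5, Lox, Loxl1, Lum, Nid2, Prelp, Tnc, Col1a2, Col4a2, Col4a6, Col5a2, Col6a1, Col6a3, Col6a6, Col8a2, Col10a1, Col13a1, Col16a1, Col17a1, Col24a1, Col25a1, Col26a1 and Col28a1. Some of these 25 rested on few reads: Col6a6, Col17a1 and Col28a1 on 1 count each, Col13a1 on 2, and Col8a2 and Col25a1 on 3. So did the 4 counted in ES-motor neurons alone: Col5a3 on 1 count, Col6a5 on 2, Col6a4 on 12 counts of 1 library and Lama2 on 50 counts of control B. ES-astrocyte libraries were also deeper (median total 4670241.5 against 1213482 counts). These detection counts were not adjusted for depth, and the same split over all genes is not given here. Per library, 16 to 37 of the genes were detected in ES-astrocytes (mean 26.2) and 0 to 21 in ES-motor neurons.

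Presence across the 20 ES-astrocyte libraries was patchy. Only Dcn, Fbln1, Fn1, Sparc and Vcan were counted in all 20. A further 19 were counted in 10 to 19 libraries (Col1a1, Col1a2, Col4a4, Col4a5, Col8a1, Col9a3, Col11a1, Col12a1, Col18a1, Fbln2, Fbln5, Fbn1, Fbn2, Hspg2, Lama1, Lamc1, Lox, Loxl2 and Tnc). Another 14 were counted in 6 to 9 libraries (Bgn, Col3a1, Col4a1, Col4a2, Col4a3, Col4a6, Col11a2, Col22a1, Col27a1, Lama5, Lamb1, Nid1, Nid2 and Prelp), and 24 in 1 to 5. In ES-motor neurons, Vcan (15 libraries) and Lama1 (10) were the members counted in at least 10 of the 20.

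Together the 70 genes took a small share of all counts. In ES-astrocytes they held 0.118%, 0.121%, 0.0714% and 0.0534% of counts in control A to D. With IL-1α and TNF-α they held 0.0751%, 0.0853%, 0.0346% and 0.0426%, and with IL-1β and IL-6 0.0418%, 0.0553%, 0.0470% and 0.0528%. Both of these groups overlapped control, whose replicates C and D lay near them. With C1Q and C5 the share was 0.0768%, 0.0845%, 0.0693% and 0.137%, and with TGF-β2 0.121%, 0.137%, 0.115% and 0.0821%. In these groups 1 or more libraries stood above every control library, but the ranges again overlapped. Over all 20 libraries the mean was 0.0811% ± 0.0332 (SD), from 0.0346% (95% Clopper-Pearson interval 0.0322 to 0.0372%) to 0.137% (0.134 to 0.141%).

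In ES-motor neurons the share was 0.00398% ± 0.00318 (SD, n = 20), with a lowest value of 0, a median of 0.00369% and a highest of 0.0153%. The 2 ranges did not overlap: the lowest ES-astrocyte library lay above the highest ES-motor neuron library. That highest value, in C1Q and C5 replicate A, was 1 count of 6557 (95% interval 0.000386 to 0.0849%). The value 0 in IL-1α and TNF-α C and in IL-1β and IL-6 B allowed shares of up to 0.00123% and 0.00459%. Among the 18 ES-motor neuron libraries with at least 100000 counts the share was 0.00358% ± 0.00164 (SD). The libraries are bulk samples, so fewer matrix-producing cells and less matrix RNA per cell cannot be told apart, here and in every result that follows.

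**Figure D1:**
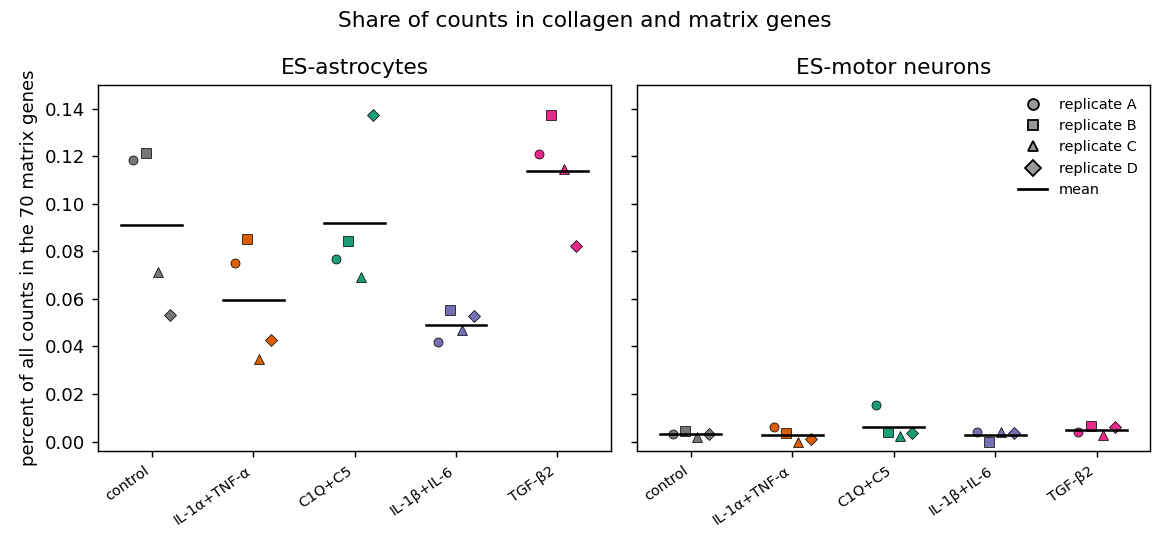
Percent of all counts that fell on the 70 matrix genes (vertical axis) in each of the 40 libraries, in separate panels for ES-astrocytes and ES-motor neurons, by treatment of the ES-astrocytes; marker shapes are replicates A to D and horizontal lines are group means. ES-astrocyte libraries lay between 0.0346% and 0.137%, and ES-motor neuron libraries between 0 and 0.0153%.

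Ordered by role, the matricellular genes and versican (4 genes) summed to 258 ± 139 CPM in ES-astrocytes (SD, n = 20), the 4 small leucine-rich proteoglycans to 233 ± 188 CPM, and the 6 genes of fibronectin, fibrillins and fibulins to 142 ± 63.1 CPM. The 11 fibrillar collagens reached 59.8 ± 75.9 CPM, and the 12 network, anchoring and multiplexin collagens 41.3 ± 18.3 CPM. All 44 collagens together took 0.0115% ± 0.00779 of the counts, whereas Sparc and Dcn alone took 0.0439% ± 0.0234. The 9 laminins, nidogens and perlecan summed to 36.2 ± 21.4 CPM, the 3 lysyl oxidases to 21.0 ± 20.9 CPM and the 9 fibril-associated (FACIT) collagens to 13.9 ± 12.6 CPM. The 8 beaded filament and related collagens (1.5 ± 3.07 CPM) and the 4 transmembrane collagens (0.294 ± 0.923 CPM) were close to the detection limit. For the fibrillar, beaded and transmembrane collagens the SD exceeded the mean, and most neighbours in this order did not differ beyond the spread between libraries.

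Per kilobase of exon, the scale on which levels of different genes can be compared, the ES-astrocyte means were led by Sparc (56.3 CPM per kb) and Dcn (37.9 CPM per kb). Fn1 (6.27), Fbln1 (6.21), Col1a1 (4.96), Lox (3.78), Vcan (2.74), Fbln5 (2.60) and Lamc1 (2.51 CPM per kb) followed at far lower levels. Col8a1 (1.63), Prelp (1.55), Col18a1 (1.16) and Fbln2 (1.01 CPM per kb) were the others above 1. In ES-motor neuron libraries with at least 100000 counts the order per kilobase was Vcan (1.07), Sparc (0.911), Lama1 (0.516), Fbln1 (0.467) and Col9a3 (0.287 CPM per kb).

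Sparc encodes a collagen-binding matricellular glycoprotein that astrocytes secrete. Its level in ES-astrocytes was 66.8, 168 and 558 CPM at the lowest, median and highest library. In ES-motor neurons it was counted in 8 libraries, with a highest value of 20.6 CPM. Every ES-astrocyte library lay above every ES-motor neuron library. Over pooled counts Sparc was 64.0-fold higher in ES-astrocytes (95% interval 56.4 to 72.9). Such pooled folds give deep libraries more weight: of 56 members with one, 46 moved by over 1.5 times, or were left with only a limit or with none, when 1 of the 40 libraries was left out. For 6 of them (Col2a1, Col7a1, Col9a3, Col20a1, Col23a1 and Lama1) the direction turned. Control A held the highest value, 558 CPM, and the other 3 control libraries lay between 138 and 159 CPM. That library also had the highest summed smooth muscle markers (1419 CPM) and a low astrocyte list (1237 CPM), and their part in its Sparc level was not tested.

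Versican, a large chondroitin sulphate proteoglycan of neural tissue, was counted in more ES-motor neuron libraries than any other of the 70 genes. Vcan was at 8.04, 34.3 and 124 CPM (lowest, median and highest) in ES-astrocytes and at 0, 11.4 and 45.7 CPM in ES-motor neurons. The ranges overlapped, and the pooled ratio was 1.77 (95% interval 1.66 to 1.88). Tnc, the gene of tenascin-C, a glycoprotein of developing and injured neural tissue, was counted in 13 ES-astrocyte libraries with a highest value of 29.5 CPM and in no ES-motor neuron library, which makes it at least 85.1-fold higher in ES-astrocytes (3 counts over the group as the limit).

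Among the small leucine-rich proteoglycans, which bind collagen fibrils and growth factors, Dcn (decorin) stood first. Dcn was at 35.4, 138 and 805 CPM (lowest, median and highest) in ES-astrocytes. In ES-motor neurons it had 17 counts in 4 libraries and none in the other 16. No library of either type reached into the range of the other, and the pooled fold was 956 (95% interval 597 to 1641). Leaving out IL-1β and IL-6 A, which held 13 of the 17 counts, gave 3072 (1200 to 11277). In control alone Dcn had no count in ES-motor neurons and was at least 3087-fold higher in ES-astrocytes, a limit that became 464-fold without ES-motor neuron control B, the deepest library of that cell type, and 1181-fold without ES-astrocyte control B.

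The relatives of Dcn were far more sporadic. Prelp, which anchors basement membranes to collagen, had a median of 0 and a highest value of 35.9 CPM in ES-astrocytes, in 6 libraries. Bgn (biglycan) was counted in 9 with a highest value of 30.6 CPM. Lum (lumican), a neighbour of Dcn on chromosome 10, was counted in 2 libraries, at 19.1 CPM in control B and 12.2 CPM in IL-1α and TNF-α A. None of these 3 genes had a count in ES-motor neurons, and over pooled counts they were at least 131-fold (Prelp), 84.7-fold (Bgn) and 68.3-fold (Lum) higher in ES-astrocytes. The limit for Lum was 32.4-fold without ES-astrocyte control B.

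Fn1 encodes fibronectin, the glycoprotein on which cells assemble other fibres. Its ES-astrocyte level was 5.70, 55.8 and 166 CPM (lowest, median and highest). In ES-motor neurons 69 counts fell in 3 libraries, and 66 of them in control B. The highest ES-motor neuron level, 67.6 CPM in C1Q and C5 A, was 1 count of 6557, and reached into the ES-astrocyte range, while the other libraries of this type lay at or under 3.38 CPM. The pooled fold was 69.4 (54.8 to 89.2), and 1113 (381 to 5397) without control B, so 1 library sets its size but not its direction.

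The fibulins are elastic fibre and basement membrane glycoproteins. Fbln1 was at 0.546, 25.9 and 94.8 CPM (lowest, median and highest) in ES-astrocytes, with a pooled fold of 12.4 (10.5 to 14.8) over ES-motor neurons. Fbln5, needed for elastic fibre assembly, ranged from 0 through a median of 14.1 to 69.5 CPM. Fbln5 had no count in ES-motor neurons and was at least 443-fold higher in ES-astrocytes. Fbln2 was counted in 12 ES-astrocyte libraries, with a highest value of 30.6 CPM, and in no ES-motor neuron library (at least 172-fold). The fibrillins build the microfibrils of elastic fibres. Fbn2 was counted in 16 ES-astrocyte libraries with a mean of 9.09 CPM and Fbn1 in 11 with a mean of 7.64 CPM, and their pooled folds were 40.3 and 38.0. Leaving out ES-motor neuron control D made the fold of Fbn2 83.5, and leaving out ES-astrocyte IL-1β and IL-6 C made that of Fbn1 20.8.

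Collagen I is a trimer of 2 Col1a1 chains and 1 Col1a2 chain and is the main collagen of bone, skin and scar. Col1a1 was at 0, 182, 56.6 and 1.54 CPM in control A to D and at 2.30, 121, 3.68 and 1.51 CPM with IL-1α and TNF-α. It was at 50.6, 5.05, 17 and 83.5 CPM with C1Q and C5 and at 1.23, 12.2, 27.5 and 80.5 CPM with TGF-β2, but at 0, 1.01, 3.90 and 0 CPM with IL-1β and IL-6. Replicates of 1 group thus differed by orders of magnitude, and the low values of IL-1β and IL-6 overlapped those of control A and D. Over the 20 libraries Col1a1 had a median of 4.47 CPM and a mean of 32.6 ± 49.7 CPM (SD). The 3 counts in ES-motor neurons gave a pooled ratio of 717 (245 to 3476), which became 383 without ES-astrocyte control B and 2111 without ES-motor neuron TGF-β2 D.

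Col1a2 was at 4.61, 96.8, 30.0 and 0 CPM in control A to D. It was at 0, 0.606, 0.0780 and 0 CPM with IL-1β and IL-6, and its other groups ranged from 0 to 53.1 CPM, the highest in TGF-β2 D. Control B was the highest library for both chains and for Col3a1, the homotrimeric fibrillar collagen of soft tissue. Col3a1 was counted in 6 ES-astrocyte libraries, and control B (19.1 CPM) held 43.5% of its summed level. No Col1a2 read was counted in ES-motor neurons, which makes it 319-fold lower there or more, and Col3a1 had 1 count (ratio 197, 35 to 7785). Without ES-astrocyte control B the limit for Col1a2 was 134-fold and the ratio of Col3a1 was 88.1.

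Col11a1, a minor fibrillar chain of cartilage and embryonic tissue, was the most widely counted of the other fibrillar collagens, in 16 ES-astrocyte libraries at a mean of 8.47 CPM. Col5a1 and Col5a2, chains of collagen V that start fibril growth, were counted in 4 and 5 libraries at means of 0.489 and 1.48 CPM. Col11a2 and Col27a1 were counted in 6 to 9 ES-astrocyte libraries, and Col2a1 (the cartilage collagen) and Col24a1 in 1 to 5.

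Collagen IV is the sheet-forming collagen of basement membranes. Its common pair was sparse: Col4a1 was counted in 9 ES-astrocyte libraries (highest 26.2 CPM) and Col4a2 in 8 (highest 32.9 CPM), and only 3 libraries held both. Of the less common chains, Col4a5 was counted in 12 libraries (mean 5.70 CPM), Col4a4 in 11 (4.32 CPM), Col4a6 in 8 (0.813 CPM) and Col4a3 in 7 (2.51 CPM). Col4a5 had a pooled fold of 182 (50.1 to 1505), Col4a2 was at least 65.7-fold and Col4a6 at least 26.2-fold higher in ES-astrocytes, whereas Col4a4 (4.89) and Col4a3 (3.38) had smaller ratios. All 55 ES-motor neuron counts of Col4a3 lay in TGF-β2 B, without which Col4a3 was at least 50.8-fold higher in ES-astrocytes and Col4a4 7.86-fold. Leaving out 1 ES-astrocyte library lowered the fold of Col4a5 to 115 (IL-1α and TNF-α A) and the limits of Col4a2 to 27.9 (C1Q and C5 D) and of Col4a6 to 16.4 (C1Q and C5 B). Col8a1, a short-chain network collagen, ranged from 0 through a median of 4.41 to 66.9 CPM (pooled fold 41.5, 28.0 to 64.3, and at least 283 without ES-motor neuron TGF-β2 B). Col18a1, the source of the angiogenesis inhibitor endostatin, was at 0, 6.47 and 19.6 CPM (lowest, median and highest). Its pooled fold of 8.22 became 54.9 (26.5 to 137) without ES-motor neuron control B. Col7a1, Col8a2 and Col10a1 were counted in 1 to 5 ES-astrocyte libraries.

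Of the FACIT collagens, which sit on the surface of fibrils, Col12a1 was counted in 18 ES-astrocyte libraries at a mean of 9.48 CPM (pooled fold 45.7, and 123 without ES-motor neuron TGF-β2 D). Col22a1 was counted in 9 at a mean of 2.98 CPM, with a pooled fold of 5.15 that became at least 65.9 without ES-motor neuron control B and 3.04 without ES-astrocyte IL-1β and IL-6 C. Col9a3, a collagen IX chain, was counted in 10 ES-astrocyte and 8 ES-motor neuron libraries, and the interval of its pooled ratio of 0.890 (0.667 to 1.19) included 1. The ratio turned to 1.4 (0.957 to 2.10) without ES-motor neuron control B, which held 44 of 79 counts, and was 0.489 (0.345 to 0.691) without ES-astrocyte IL-1α and TNF-α A. Col9a2, Col14a1, Col16a1 and Col20a1 were counted in 1 to 5 ES-astrocyte libraries. Collagen VI, a beaded filament collagen of most connective tissue, was nearly missing: Col6a1 was counted in 5 ES-astrocyte libraries with 81.0% of its summed level in 1 of them (IL-1α and TNF-α A), Col6a2 in 1 and Col6a3 in 4. Col6a6, Col26a1 and Col28a1, and the transmembrane collagens Col13a1, Col17a1, Col23a1 and Col25a1, were counted in 1 to 5 ES-astrocyte libraries.

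Lox encodes the lysyl oxidase that crosslinks collagen and elastin. It was at 0, 9.68, 49.0 and 0 CPM in control A to D, and at 23.0, 45.3, 59.7 and 46.6 CPM with TGF-β2. With C1Q and C5 it was at 3.37, 3.08, 0 and 0.618 CPM, and with IL-1α and TNF-α at 34.8, 2.98, 0 and 26.6 CPM. The 4 C1Q and C5 libraries were all low. With IL-1β and IL-6 Lox was at 2.27, 2.83, 42.3 and 9.33 CPM. The 4 TGF-β2 libraries were all among the 8 highest of the 20, in a range that also held control C, IL-1α and TNF-α A and D, and IL-1β and IL-6 C. It had no count in ES-motor neurons and was at least 430-fold higher in ES-astrocytes. Its relative Loxl2 was counted in 14 ES-astrocyte libraries (mean 2.61 CPM, pooled fold 19.6) and Loxl1 in 2 (at least 12.4-fold). The fold of Loxl2 was 11.3 without ES-astrocyte IL-1α and TNF-α A and 56.1 without ES-motor neuron C1Q and C5 D, and without ES-astrocyte control A 1 count of Loxl1 was left.

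Laminins are the trimers that nucleate basement membranes. Lamc1, the common γ1 chain, was at 0, 19.8 and 65.7 CPM (lowest, median and highest) in ES-astrocytes, and 6.82-fold higher there over pooled counts (5.97 to 7.82), or 16.5-fold without ES-motor neuron IL-1β and IL-6 A. Its partner Lamb1 was counted in 8 ES-astrocyte libraries at a mean of 3.51 CPM (pooled fold 4.55, and 2.84 without C1Q and C5 D). Lama1, the α chain of embryonic laminin, differed little: it was counted in 11 ES-astrocyte libraries (highest 21.0 CPM) and 10 ES-motor neuron libraries (highest 24.9 CPM), with a pooled ratio of 1.31 (1.13 to 1.52) that turned to 0.967 (0.826 to 1.13) without ES-astrocyte control A. Lama5 was counted in 7 ES-astrocyte libraries and Lama4 in 4, at means of 1.12 and 0.497 CPM. The nidogens link laminin to collagen IV. Nid1 was counted in 9 ES-astrocyte libraries (pooled fold 70.3, and 39.1 without IL-1α and TNF-α A) and Nid2 in 6, with 50% of its summed level in IL-1β and IL-6 C. Hspg2, the gene of perlecan, was counted in 10 at a mean of 0.413 CPM.

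**Figure D2:**
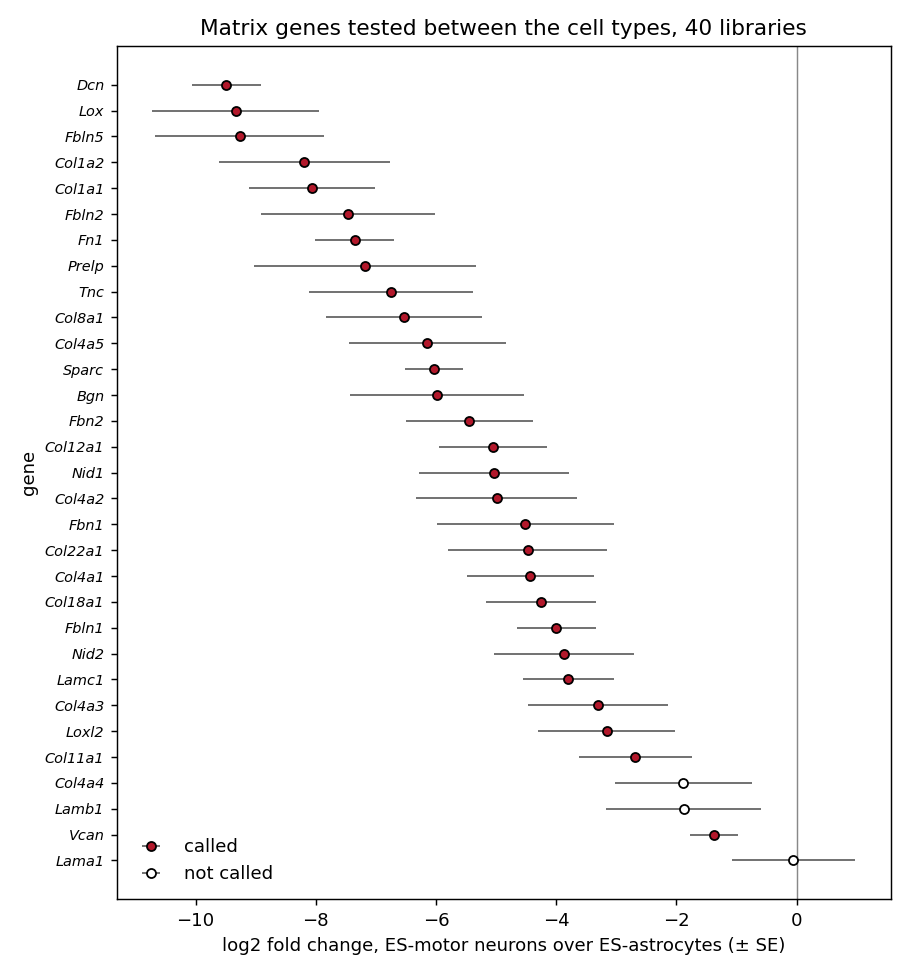
Log2 fold change of ES-motor neurons over ES-astrocytes (horizontal axis, points ± SE) for the 31 matrix genes that passed the filter on low counts, from an edgeR fit of 40 libraries with treatment as a term; filled points passed the test and open points did not. Of the 31 genes, 28 were called lower in ES-motor neurons, against 11% of 13227 genes, and Col4a4, Lamb1 and Lama1 were not called. The 9 genes with no count in ES-motor neurons could only come out lower, and their points are no bounds. DESeq2 placed Nid2 at 0.50.

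The cell types were first compared in control (n = 4 each), with edgeR's quasi-likelihood test over all genes. A call needed a p of 0.05 or less after Benjamini-Hochberg adjustment together with a log2 fold change beyond 1 in either direction. Decorin, SPARC and fibulin 5 transcripts were lower in ES-motor neurons: Dcn (log2 fold change −14.01, SE 1.58, adjusted p = 0.00554), Sparc (−6.77, SE 0.95, adjusted p = 0.00564) and Fbln5 (−10.77, SE 1.85, adjusted p = 0.0232). These 3 were all the members called of 7 that passed the filter, against 2.24% of 10199 genes called in either direction and 1.67% called lower. Dcn and Fbln5 had no count in the control ES-motor neurons, so their fitted values are no bounds, and the bounds over pooled counts were at least 3087-fold and 261-fold, or 464-fold and 39.3-fold without ES-motor neuron control B. Fn1 (−4.99, adjusted p = 0.121), Fbln1 (−4.75, adjusted p = 0.104), Fbn2 (−3.31, adjusted p = 0.606) and Vcan (−0.65, adjusted p = 0.883) were not called. The member median of log2 fold changes was −4.99, also with genes at 0 set to their bound, and that of all genes −0.20. A gene could pass the filter through the ES-astrocytes alone, so these counts describe the tested genes and not all 70.

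The call of Fbln5 was lost with the replicate letter as a block, without the libraries under 20% of the median total, without ES-astrocyte control C, and without ES-motor neuron control A, B, C or D, each in turn, and its adjusted p ranged from 1.18e-08 to 0.202 over the alternatives, while Dcn and Sparc were called under every alternative run. Among all genes the count of 228 became 401, 125, 132 and 134 without ES-astrocyte control A, B, C and D, and 101, 72, 81 and 86 without ES-motor neuron control A, B, C and D. DESeq2 and a fit of all 40 libraries each called 7 members, adding Fn1, Fbln1, Col1a1 and Col1a2, against 4.30% of 17737 and 3.27% of 13227 genes.

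Over the 5 treatments (n = 20 each, with treatment as a term), 28 of 31 tested members were called lower in ES-motor neurons and none was called higher, against 14.9% of 13227 genes called in either direction and 11% called lower. Here too a gene could pass the filter through the ES-astrocytes alone, as the 9 with no count in ES-motor neurons did, and such a gene could only come out lower, so that the counts here and by role describe the tested genes and not all 70. The median log2 fold change of the 31 was −5.04, or −5.44 with the 9 genes at 0 in ES-motor neurons set to their bound, and that of all genes was −0.21. The proteoglycan Dcn (−9.49, SE 0.57, adjusted p = 3.89e-18), the matricellular Sparc (−6.04, SE 0.48, adjusted p = 1.38e-13) and fibronectin Fn1 (−7.35, SE 0.65, adjusted p = 9.36e-13) had the smallest adjusted p-values. Of collagen I, Col1a1 was at −8.06 (SE 1.04, adjusted p = 3.35e-08) and Col1a2 at −8.19 (SE 1.43, adjusted p = 6.99e-05). Lox (−9.34, SE 1.39, adjusted p = 6.69e-06) and Fbln5 (−9.27, SE 1.41, adjusted p = 9.89e-06) were also lower, although these fitted values, like that of Col1a2, stand for genes with no count in ES-motor neurons.

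By role, the called genes were 3 of 3 tested matricellular genes and versican, 3 of 3 small leucine-rich proteoglycans, 6 of 6 glycoproteins of the fibronectin, fibrillin and fibulin group, 3 of 3 fibrillar collagens, 6 of 7 network collagens, 2 of 2 FACIT collagens, 2 of 2 lysyl oxidases and 3 of 5 laminins and nidogens. The 9 of them with no count in ES-motor neurons were Tnc, Prelp, Bgn, Fbln2, Fbln5, Col1a2, Col4a2, Lox and Nid2. Among the glycoproteins, Fbln1 was at −4.00 (adjusted p = 5.78e-06), Fbn2 at −5.44, Fbln2 at −7.47 and Fbn1 at −4.51 on the log2 scale. Network and fibril-associated collagens ranged from −6.53 (Col8a1, adjusted p = 0.000141) and −6.14 (Col4a5) to −3.30 (Col4a3), with Col12a1 at −5.05, Col22a1 at −4.47, Col18a1 at −4.25 and Col4a1 at −4.43. The remaining calls were Tnc at −6.74, Prelp at −7.18, Bgn at −5.98, Nid1 at −5.04, Col4a2 at −4.99, Nid2 at −3.87, Lamc1 at −3.80, Loxl2 at −3.16, Col11a1 at −2.68 and Vcan at −1.37. Vcan had the smallest called change (SE 0.40, adjusted p = 0.0110), and its call was lost without replicate C, without replicate D, without shallow libraries and within either plate index. Basement membrane genes supplied the tested members without a call: Col4a4 (−1.89, adjusted p = 0.298), Lamb1 (−1.88, adjusted p = 0.378) and Lama1 (−0.05, adjusted p = 0.986). DESeq2 called 16 of 54 tested members, against 7.75% of 23718 genes, with an all-gene median of 0.81 in place of −0.21, and gave Nid2 a log2 fold change of 0.50, the only called member whose sign it turned. Within plate index 1 the count was 7 of 13, against 6.65% of 11161 genes, and within plate index 2 it was 18 of 24, against 10% of 12476 genes. Apart from the fits within a plate index and the stricter filter, which tested fewer members, 14 of the 28 were called under every alternative run (Dcn, Sparc, Fn1, Fbln1, Fbln5, Fbn2, Lox, Tnc, Lamc1, Col1a1, Col1a2, Col8a1, Col12a1 and Col18a1). The other 14 lost their call under 1 or more: Bgn, Prelp, Fbln2, Fbn1, Loxl2, Nid1, Nid2, Vcan, Col4a1, Col4a2, Col4a3, Col4a5, Col11a1 and Col22a1.

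The stimuli were then compared with control within ES-astrocytes. Dcn was at 89.0, 805, 110 and 278 CPM in control A to D. With TGF-β2 it was at 443, 445, 381 and 272 CPM. The TGF-β2 libraries were all high and close to each other, but control B lay above and control D within their range. With IL-1α and TNF-α it was at 198, 108, 96.7 and 66.8 CPM, with IL-1β and IL-6 at 142, 35.4, 135 and 203 CPM, and with C1Q and C5 at 352, 116, 55.8 and 91.8 CPM. All 4 TGF-β2 libraries lay above all 8 libraries of the treatments that held an interleukin, and C1Q and C5 A (352 CPM) lay within the range of TGF-β2. The group means were 321 ± 334, 117 ± 56.4, 154 ± 134, 129 ± 69.5 and 385 ± 81.4 CPM (SD, n = 4) in control, IL-1α and TNF-α, C1Q and C5, IL-1β and IL-6, and TGF-β2.

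Sparc was at 558, 138, 159 and 153 CPM in control A to D, and at 206, 206, 102 and 129 CPM with IL-1α and TNF-α. With C1Q and C5 it was at 159, 295, 230 and 438 CPM. These groups overlapped, with control A the highest library of all. With IL-1β and IL-6 Sparc was at 68.8, 256, 76.0 and 66.8 CPM, and with TGF-β2 at 296, 412, 137 and 178 CPM. Of IL-1β and IL-6, 3 libraries lay below every control library, while replicate B was among the higher ones.

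Fn1 was at 34.5, 5.70, 101 and 26.9 CPM in control, at 73.0, 161, 166 and 92.9 CPM with TGF-β2, and at 154, 50.6, 43.7 and 56.7 CPM with IL-1α and TNF-α. The TGF-β2 libraries lay above control A, B and D and overlapped control C. With C1Q and C5 it was at 47.9, 52.9, 74.2 and 54.9 CPM and with IL-1β and IL-6 at 41.8, 81.8, 51.0 and 95.3 CPM. Fbln5 was at 69.5, 14.2, 36.2 and 14.1 CPM in control and at 0, 7.61, 0 and 0 CPM with IL-1α and TNF-α, so that these groups did not overlap. With IL-1β and IL-6 Fbln5 was at 0, 0, 14.7 and 0 CPM, where replicate C reached the lower control libraries. With C1Q and C5 (22.9, 46.9, 2.72 and 26.0 CPM) and with TGF-β2 (16.2, 14.7, 65.5 and 7.96 CPM) it overlapped control.

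**Figure D3:**
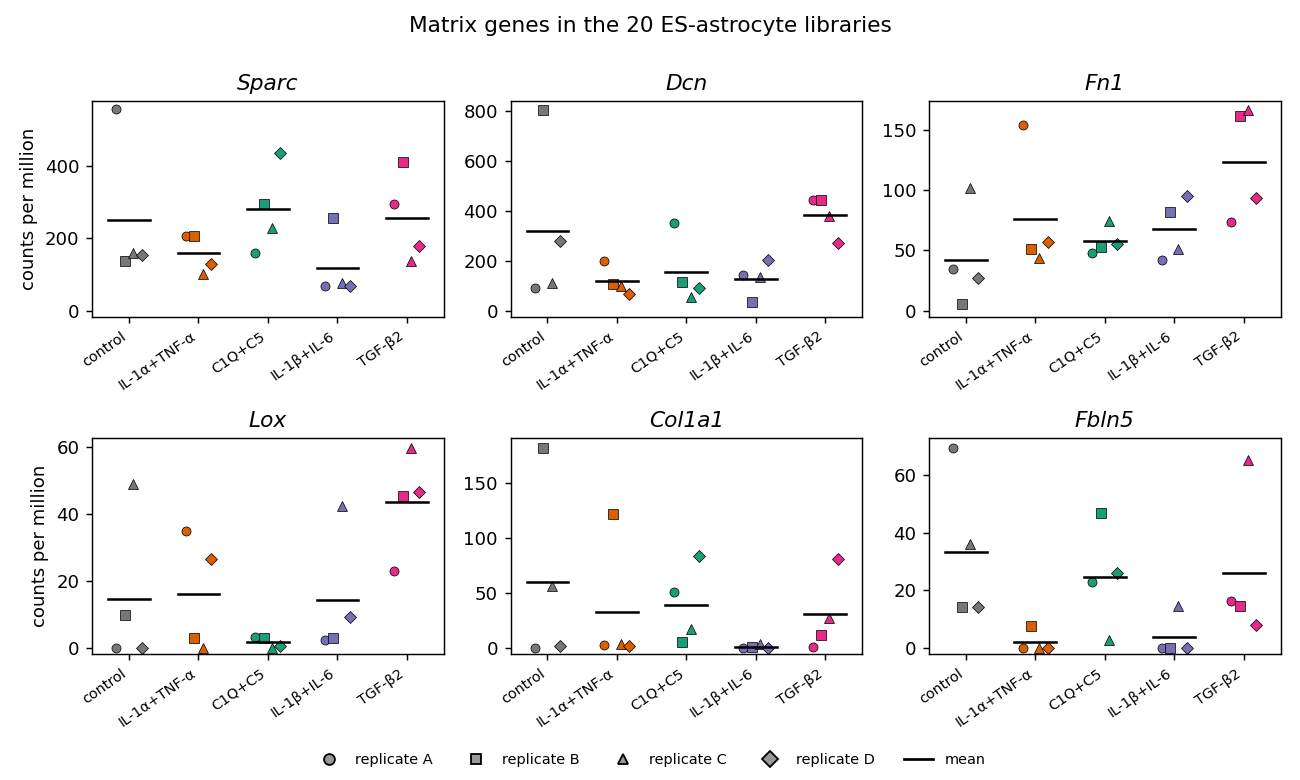
Level (CPM, vertical axis) of Sparc, Dcn, Fn1, Lox, Col1a1 and Fbln5 in the 20 ES-astrocyte libraries, by treatment; points are libraries and horizontal lines are group means (n = 4). Dcn lay between 272 and 445 CPM with TGF-β2 and between 35.4 and 203 CPM with IL-1β and IL-6, whereas control ranged from 89.0 to 805 CPM.

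None of these differences passed the test. With edgeR, 0 members were called of 16, 21, 18 and 18 tested with IL-1α and TNF-α, C1Q and C5, IL-1β and IL-6, and TGF-β2, where 0% of 10444, 10865, 10240 and 10794 genes were called, and every adjusted p was 1. At an unadjusted p under 0.05 there were 93, 106, 119 and 136 genes, and 1, 0, 0 and 0 members. That member was Fbln5 with IL-1α and TNF-α (log2 fold change −4.08). The 4 comparisons share their control libraries, so values are given side by side in that order. Dcn was at −1.40, −1.03, −1.29 and 0.32, Sparc at −0.62, 0.20, −1.09 and 0.08, and Fn1 at 0.89, 0.48, 0.70 and 1.60 on the log2 scale. For Lox the values were 0.18, −3.00, −0.05 and 1.61, and for Fbln5 −4.08, −0.40, −3.17 and −0.31. Fbln1 was at −1.70, −0.50, −1.52 and −0.58, Vcan at 0.49, 1.03, −0.39 and 1.03, and Lamc1 at 0.80, 0.73, 2.09 and 1.02. Col1a1 was at −0.82, −0.56 and −0.95 with IL-1α and TNF-α, C1Q and C5, and TGF-β2, and was not tested with IL-1β and IL-6. Medians over the tested members were −0.53, 0.46, 0.21 and 0.05, beside −0.08, −0.07, −0.07 and −0.06 over all genes.

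DESeq2 called 21, 37, 56 and 58 genes in these comparisons and 0, 0, 1 and 0 members. The member was Col1a2 with IL-1β and IL-6 (log2 fold change −7.39, SE 1.93, adjusted p = 0.0344), against 0.328% of 17093 genes. Over the alternatives of that result its adjusted p was otherwise 0.319 to 1.00, and the gene did not pass edgeR's filter there. The summed smooth muscle markers had group means of 528, 189, 265, 257 and 468 CPM in control and the 4 stimuli. The control mean rests on control A (1419 CPM), since control B, C and D were at 98.5, 484 and 112 CPM. The fibroblast list had means of 392, 661, 415, 673 and 381 CPM in the same order. These sums were not tested between groups, nor was their part in the matrix levels.

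When the 5 ES-astrocyte groups were compared in 1 test for any difference, edgeR called 0 of 35 tested members, where 0% of 13195 genes were called, and DESeq2 called 11 genes and 0 members. At an unadjusted p under 0.05 there were 6 members (Nid2, Dcn, Col4a1, Col4a2, Col1a2 and Col5a2), where 2.61% of all genes reached this level. Apart from Dcn (20) and Col1a2 (15) these genes were counted in 5 to 9 of the 20 libraries. Nid2 was at 0 in all 8 control and TGF-β2 libraries and highest in IL-1β and IL-6 C, at 22.5 CPM. Col4a1 was at 26.2 and 19.6 CPM in IL-1α and TNF-α C and D, and at 0 in all 4 IL-1β and IL-6 libraries.

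TGF-β, a strong inducer of matrix genes in fibroblasts, could be compared with the other 3 stimuli. Set against their mean, TGF-β2 gave no call with edgeR: 0 of 35 tested members, where 0% of 13195 genes were called. At an unadjusted p under 0.05 there were 8 members, where 3.62% of genes reached this level, and every adjusted p was 1. Of these 8, 5 had positive log2 fold changes with TGF-β2, namely Dcn (1.56, SE 0.47), Lox (2.56, SE 1.18), Col1a2 (2.99), Fbln2 (3.13) and Col4a4 (4.58). That of Col1a2 rests on TGF-β2 D (53.1 CPM, the others 0.292 to 2.87 CPM) and was −0.88 without replicate D. Col4a4 had no count in the 4 IL-1α and TNF-α libraries, so its fitted value is no bound. The other 3 had negative ones, Nid2 (−6.41), Prelp (−8.22) and Col4a2 (−5.69), and Nid2 and Prelp had no count in the 4 TGF-β2 libraries. Fn1 (0.90), Fbln5 (2.20), Sparc (0.57), Vcan (0.66), Col1a1 (1.33) and Fbln1 (0.64) were not past that level. The median over the tested members was 0.66, also with genes at 0 set to their bound, beside 0.08 over all genes. DESeq2 called 33 of 21655 genes (0.152%), of which 1 was a member, Prelp (log2 fold change −22.37, SE 3.31, adjusted p = 2.51e-08). Its counts among the stimuli lay in IL-1α and TNF-α A and B, C1Q and C5 B and C, and IL-1β and IL-6 A alone. Prelp had adjusted p-values of 0.296 to 1 under the other alternatives. Within plate index 2 alone edgeR called 0 of 11876 genes and 7 of 27 members had an unadjusted p under 0.05, a level that 2.68% of these genes reached. As checks of the stimuli, a list of TGF-β response genes had 7 tested, 0 called and a median of 1.14, with 1 gene (Tagln, 1.22) at an unadjusted p under 0.05. Against control the list had 6 tested with TGF-β2, 0 called and a median of 0.34, and Acta2 was at means of 351 CPM with TGF-β2 and 426 CPM in control. Of the cytokine response list, Saa3, an acute phase gene, was at 0 in control and at means of 94.5 and 34.6 CPM with IL-1α and TNF-α and with IL-1β and IL-6, and 4 genes were tested with IL-1α and TNF-α, of which 0 were called and 1 had an unadjusted p under 0.05 (median 1.61). With IL-1β and IL-6, 2 were tested and 0 called, with a median of −0.38.

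ES-motor neurons offered almost nothing to test among these genes. Vcan was at 24.5, 19.2, 7.70 and 17.7 CPM in control A to D and at 0, 10.8, 0 and 8.67 CPM with IL-1α and TNF-α. With TGF-β2 it was at 0, 45.7, 12.6 and 18.9 CPM, with C1Q and C5 at 0, 17.5, 4.10 and 12 CPM, and with IL-1β and IL-6 at 9.79, 0, 34.9 and 33.5 CPM. All groups overlapped, and the zeros fell in shallow libraries. Of the stimuli in order, 0, 1, 1 and 1 members passed the filter, in each case Vcan, with log2 fold changes of −0.67, 0.25 and 0.20 for C1Q and C5, IL-1β and IL-6, and TGF-β2. With edgeR 0 members were called, where 0% of 4479, 7348 and 8327 genes and 0.0126% of 7947 genes (1 gene, with TGF-β2) were called. At an unadjusted p under 0.05 there were 143, 322, 98 and 221 genes, and DESeq2 called 1, 0, 1 and 19 genes and 0 members.

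Genes that make, process or bind matrix were examined as 4 lists, with the cell types compared over the 5 treatments. Of 25 genes of collagen synthesis and processing, 17 were tested and 5 were lower in ES-motor neurons, beside 11% of all genes tested, with a median of −0.65 beside −0.21 for all genes. They were the collagen chaperone Serpinh1 (−3.01, adjusted p = 0.000487), P3h4 (−4.82) of collagen lysine modification, Crtap (−4.30) of prolyl hydroxylation, the propeptide-cleaving proteinase Bmp1 (−1.76) and its enhancer Pcolce (−2.28). The abundant Ppib, an isomerase that forms a complex with Crtap, did not reach the fold threshold (−0.63), and P4hb, a subunit of prolyl 4-hydroxylase, was not called either (−0.42, adjusted p = 0.276). Of 20 remodelling enzymes and inhibitors 11 were tested and 5 were lower (median −2.16), beside the same 11% of all genes. They were led by the protease inhibitor Serpine2 (−4.71, adjusted p = 1.46e-09), with Timp3 (−2.16), Mmp11 (−2.33), Mmp2 (−3.88) and Adamts5 (−4.04). Adamts5 had no count in ES-motor neurons, so it could only come out lower and its fitted value is no bound. Of 23 matrix receptors 16 were tested, and 8 were lower and 1 was higher (median −2.0), beside 14.9% of all genes called in either direction.

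The receptors showed both directions. Syndecan 4 (Sdc4, −10.79, adjusted p = 3.73e-14) and the hyaluronan receptor Cd44 (−6.08, adjusted p = 1.10e-10) were lower in ES-motor neurons, as were Itgb8 (−3.89), Itgb5 (−4.66), Sdc2 (−3.77), Ddr1 (−2.59), Itga6 (−2.09) and Itgav (−1.91). The integrin subunit Itga9, a receptor for tenascin-C, was higher (3.50, adjusted p = 0.0112). Itgb1, the common β1 subunit, was not called (0.16, adjusted p = 0.734). Of 30 brain matrix and other matrix genes 11 were tested, with a median of −2.50. Of these, 5 were lower (Thbs1 −6.32, Thbs2 −8.58, Spp1 −5.64, Lamb2 −6.90 and Ogn −8.07) and 1 was higher, tenascin-R (Tnr, 2.92), beside 14.9% of all genes called in either direction. Thbs2, Lamb2 and Ogn had no count in ES-motor neurons, so they could only come out lower and their fitted values are no bounds. Medians of these lists were the same with genes at 0 set to their bound. Neurocan (Ncan), a proteoglycan of the perineural matrix, had a higher CPM than any of the 70 genes in both cell types. It was at 1239 CPM in ES-astrocytes and at 1163 CPM in the 18 ES-motor neuron libraries with at least 100000 counts. These values were not scaled per kilobase, so gene length enters this ranking. In control alone the 4 lists had 0 of 11, 1 of 7 (Serpine2, −4.08), 1 of 8 (Cd44, −6.46) and 0 of 5 tested genes called by edgeR, beside 2.24% of all genes, and 2, 2, 1 and 0 at an unadjusted p under 0.05, which 10.6% of all genes reached. For the stimuli against control edgeR called 0 genes of the 4 lists in either cell type, and Adamts1 and Spp1 in ES-astrocytes and Tnr in ES-motor neurons were the genes with an unadjusted p under 0.05. With TGF-β2 against the other stimuli edgeR called 0 genes of the lists, and 0 of 16, 1 of 12, 3 of 16 and 2 of 12 tested genes had an unadjusted p under 0.05, beside 3.62% of all genes. The lists are given from edgeR alone.

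Related or neighbouring genes (chains of 1 trimer, Col1a1 with Col3a1, the 2 nidogens, and genes side by side) were compared as 10 pairs across the 20 ES-astrocyte libraries, on log2(CPM + 1), by two-sided permutation tests with 100000 resamples and p adjusted over the 10 pairs. Col1a1 and Col1a2 had a Pearson r of 0.591 (p = 0.00652, adjusted p = 0.0326) and a Spearman rho of 0.574 (p = 0.00955, adjusted p = 0.0477), with 14 libraries holding both. Col1a1 and Col3a1 had an r of 0.630 (p = 0.00175, adjusted p = 0.0175) and a rho of 0.691 (p = 0.00077, adjusted p = 0.0077), with Col3a1 in 6 libraries, all of which held Col1a1. Within treatments, which also removes the plate index, r was 0.472 and 0.629, and Col1a1 with Col1a2 no longer passed (adjusted p = 0.118, 0.0182 to 0.320 over the alternatives). Without the 2 libraries farthest from the median r was 0.558 and 0.402, and without the 4 control libraries 0.473 and 0.548, and with either of these, which leave fewer libraries, neither pair passed. Of these 2 pairs, the fall in r was largest for Col1a1 with Col3a1 without 2 libraries, so that this relation rests in part on those libraries. The other 8 pairs did not pass. Among them Dcn and Lum had an r of 0.403 (p = 0.0824, adjusted p = 0.275) and a rho of 0.329 (p = 0.172, adjusted p = 0.431). Within treatments Dcn and Lum did pass (r = 0.591, adjusted p = 0.0281, 0.0281 to 1 over the alternatives), although Lum was counted in only 2 libraries, of which control B was highest for both genes, and without the 4 control libraries r was 0.0913. Col4a1 and Col4a2, partners in collagen IV, had an r of −0.202 (p = 0.408, adjusted p = 0.680) and a rho of −0.132 (p = 0.578, adjusted p = 0.723).

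In the mouse genome (build GRCm38) several of these genes lie side by side, in positions given here from the GENCODE M21 annotation. Col4a1 (chr8:11198423-11312826) and Col4a2 (chr8:11312805-11449287) are head to head and overlap by 22 bases. Col4a4 and Col4a3 on chromosome 1 are head to head with a gap of 71 bases, and Col4a6 and Col4a5 on chromosome X with a gap of 1308 bases. Both genes of a head-to-head pair were counted in 3 ES-astrocyte libraries for Col4a1 (9 libraries) and Col4a2 (8), in 5 for Col4a4 (11) and Col4a3 (7), and in 4 for Col4a6 (8) and Col4a5 (12). Dcn (chr10:97479609-97518143) and Lum (chr10:97565128-97572703) lie 46984 bases apart in the same direction, at 37.9 and 0.639 CPM per kb. Col3a1 (chr1:45311538-45349706) lies 24614 bases from Col5a2, and 2 libraries held both. Of the other genes described above, Sparc lies at chr11:55394500-55423183 and Fn1 at chr1:71585520-71653200. Col1a1 (chr11:94936224-94953042) and Col1a2 (chr6:4504814-4541544) are on different chromosomes.

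The promoters of Col1a2 and Col3a1, which were paired with Col1a1 above, and of the head-to-head pair Col4a1 and Col4a2, whose windows overlap, are shown for comparison. RefSeq promoters (GRCm38.p6, 300 bases from 250 before to 50 after the start) were matched for 50 of the 70 genes, and for 20, Col1a1 and Dcn among them, no entry was matched. Sequences run 5′ to 3′ along the gene, and capitals mark matches on either strand to the TATA box letters TATAAA, the inverted or direct CCAAT box, the GC box letters GGGCGG or the SMAD motif letters CAGACA, all chosen after the levels were seen. The windows are chr6:4505368-4505667 (plus strand) for Col1a2, chr1:45311288-45311587 (plus strand) for Col3a1, chr8:11312777-11313076 (minus strand) for Col4a1 and chr8:11312555-11312854 (plus strand) for Col4a2, and those of Col4a1 and Col4a2 share 78 bases.
Col1a2: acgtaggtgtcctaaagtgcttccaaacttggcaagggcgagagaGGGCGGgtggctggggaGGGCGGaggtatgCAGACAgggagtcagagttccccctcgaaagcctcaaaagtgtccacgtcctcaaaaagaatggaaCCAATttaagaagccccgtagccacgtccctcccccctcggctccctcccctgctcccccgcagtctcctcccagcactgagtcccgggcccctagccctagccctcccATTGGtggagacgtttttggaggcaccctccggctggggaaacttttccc
Col3a1: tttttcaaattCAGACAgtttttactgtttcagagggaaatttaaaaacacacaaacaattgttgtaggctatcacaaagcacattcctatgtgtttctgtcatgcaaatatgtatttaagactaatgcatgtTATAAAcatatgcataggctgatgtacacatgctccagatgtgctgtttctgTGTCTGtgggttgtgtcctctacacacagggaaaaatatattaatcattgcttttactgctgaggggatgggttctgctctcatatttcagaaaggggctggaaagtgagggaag
Col4a1: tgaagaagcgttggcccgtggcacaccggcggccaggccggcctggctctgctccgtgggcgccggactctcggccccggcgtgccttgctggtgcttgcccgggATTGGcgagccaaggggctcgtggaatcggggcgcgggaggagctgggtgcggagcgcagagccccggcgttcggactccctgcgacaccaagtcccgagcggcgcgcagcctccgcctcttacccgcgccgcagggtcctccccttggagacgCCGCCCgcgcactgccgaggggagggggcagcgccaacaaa
Col4a2: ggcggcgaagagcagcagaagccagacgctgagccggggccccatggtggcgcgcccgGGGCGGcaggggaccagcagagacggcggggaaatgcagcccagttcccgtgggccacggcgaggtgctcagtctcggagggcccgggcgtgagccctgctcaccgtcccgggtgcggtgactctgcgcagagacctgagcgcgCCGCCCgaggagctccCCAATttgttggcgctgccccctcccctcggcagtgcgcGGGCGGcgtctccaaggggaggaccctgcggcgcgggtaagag

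TATAAA was found in 1 of these 4 windows, that of Col3a1, and in 13.6% of 32851 promoters of the same length and 14.0% of the 57 promoters of the matrix genes. CCAAT was found in Col1a2 (2 matches), Col4a1 (1) and Col4a2 (1), and in 37.4% of all promoters and 33.3% of those of the matrix genes. GGGCGG had 2 matches in Col1a2, 1 in Col4a1 and 3 in Col4a2, and was in 35.7% of all promoters and 63.2% of those of the matrix genes. CAGACA had 1 match in Col1a2 and 2 in Col3a1, and was in 21.0% of all promoters and 28.1% of those of the matrix genes. The GC content was 37.7% in Col3a1, against 61%, 74% and 73.7% in Col1a2, Col4a1 and Col4a2. A match is a description of the letters and not a binding site.

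Some members share exonic bases with a gene on the opposite strand. The strand used in counting is not given in the sources used here, so reads of such partners cannot be told apart in the shared stretch. Nid2 (364 counts over the 40 libraries) shares 437 bases with Rtraf (37590 counts), Col4a3 (391 counts) shares 563 bases with C430014B12Rik (1276 counts) and Col9a3 (206 counts) shares 234 bases with Tcfl5 (861 counts). These 3 members were less abundant than their partners, and their levels are uncertain for that reason, as is that of Col10a1 (17 counts), which shares 18 bases with Nt5dc1 (586 counts). So is that of Col4a1 (185 counts), which shares 22 bases with Col4a2 (356 counts). Col20a1 (31 counts) shares 79 bases with BX649560.1 (111 counts) on the same strand, and is uncertain too. Fbn1 (766 counts) shares 2442 bases with Gm9913 (32 counts). The abundant members stood well above their partners: Fn1 had 8715 counts against 291 of Apol7d, Lox 2330 against 198 of AC161119.1, and Prelp 709 against 126 of Gm15851.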

How the data were processed

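The authors aligned paired-end reads with STAR (version not given in the sources used here) and deposited whole-number counts per Ensembl gene. The build, annotation, counter and strand are also not given in the sources used here. Symbols, positions and exon lengths came from GENCODE M21 (GRCm38), and 346 genes without a symbol held 0.133% of the counts. No 2 libraries had identical counts. Deposited counts were tested with edgeR 4.0.16 in R 4.3.3 (filterByExpr with a minimum count of 10, TMM, robust quasi-likelihood fit, Benjamini-Hochberg adjustment), with a call at an adjusted p up to 0.05 and a log2 fold change beyond 1 in either direction, and for the test of any treatment at the adjusted p alone. Levels are CPM computed from the deposited counts with TMM factors over 40 libraries. Alternatives were DESeq2 1.42.0 (alpha 0.1), RLE scaling, no filter, a minimum count of 50, the replicate letter as a block, 1 fit of 40 libraries, leaving out libraries or shallow libraries (under 20% of the median total) and, chosen after seeing the data, fits within plate index, pairs without 2 libraries and pooled folds without each library. Fits were tested on simulated data, of which no result is given here. Positive differences are higher in ES-motor neurons or with the stimulus. Genes named by rule were the 12 members most abundant per kilobase in ES-astrocytes, the 5 most abundant in ES-motor neuron libraries with at least 100000 counts, members called for a stimulus, the 5 largest called changes per direction between cell types, both genes of each pair and members never detected, and others were named after their values were seen. Members and lists were chosen with earlier results of these data known. Of the marker lists, 1 gene is not reported here.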

Additional observations from a re-analysis of the deposited data

Results flagged for a closer look

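In 16 of 70 groups of 4 libraries tested, 1 library stood far from the other 3, and chance alone marks about 1 in 20 groups. That rate was not measured for values with many zeros, such as groups whose other libraries were at 0. In ES-motor neurons with C1Q and C5, replicate A had 0.0153% of its counts in the 70 genes, which is 1 count, and the next library had 0.00389%. In ES-astrocyte control, replicate A stood apart for Sparc (558 CPM, next 159 CPM), Prelp (28.5 CPM, others 0) and Vcan, where it was lowest (8.04 CPM, next 31.8 CPM), and replicate B for Col8a1 (24.5 CPM, others 0). With IL-1α and TNF-α, replicate B stood apart for Col1a1 (121 CPM, next 3.68 CPM), Fbln1 (35.4 CPM, next 8.29 CPM), Fbln5 (7.61 CPM, others 0) and Col8a1 (6.95 CPM, others 0), and replicate A for Fn1 (154 CPM, next 56.7 CPM). With C1Q and C5, replicate D was highest for Vcan (116 CPM, next 36.1 CPM). With IL-1β and IL-6, replicate A stood apart for Prelp (35.9 CPM, others 0), replicate B for Sparc (256 CPM, next 76.0 CPM) and replicate C for Fbln5 (14.7 CPM, others 0). With TGF-β2, replicate B stood apart for Col8a1 (28.8 CPM, next 3.25 CPM) and replicate C for Fbln5 (65.5 CPM, next 16.2 CPM). The cause was not tested.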

How the results depend on the processing

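Of the alternatives for members named in the cell type comparison in control, 77 kept direction and side of the threshold, 4 brought a call (Fn1 and Fbln1 with DESeq2 and with 1 fit of 40 libraries) and 7 lost one (Fbln5). Over the 5 treatments 187 kept both, 20 lost a call and 5 turned the sign, and for TGF-β2 against the other stimuli 110 kept both, 1 brought a call and 7 turned the sign. These 3 tallies covered 6, 20 and 12 members, so losses and turns of the other members described above are not in them. Col1a2, outside the third tally, also turned its sign without replicate D for TGF-β2 against the other stimuli. DESeq2 called 7 members in control, 16 over the 5 treatments, 1 with IL-1β and IL-6 and 1 for TGF-β2 against the other stimuli, and the fit of 40 libraries called 7 in control. Over the 5 treatments the stricter filter called 10 members of the 10 it left to test, and fits within plate index 1 and 2, chosen after seeing the data and with fewer libraries, called 7 and 18. Leaving out 1 replicate gave 2 to 3 members in control, where 72 to 401 genes were called. Over the 5 treatments it gave 21 to 23 members, where 1447 to 1771 genes were called. For each stimulus, any treatment and TGF-β2 against the other stimuli it gave 0 to 0 members. Of the pairs, 2 passed within treatments, where Col1a1 with Col1a2 was lost and Dcn with Lum was gained, 0 without the 4 control libraries and 0 without 2 libraries. The sign turned for Nid2 over the 5 treatments with DESeq2 (0.50), and for the uncalled Lama1 without shallow libraries (0.49), without 1 replicate (−0.61 to 0.41, with 0.41 and 0.12 without A and C) and within plate index 2 (0.83). For TGF-β2 against the other stimuli it turned without replicate C for Lamc1 (0.12, over all replicates left out −0.54 to 0.12), Vcan (−0.21, −0.21 to 1.12) and Col8a1 (0.56, −0.76 to 0.56). For Col18a1 it turned without replicate A (0.40), B (0.04) or D (0.21), over a range of −0.90 to 0.40, and with the replicate block (0.087). The cause was not tested. Among all genes, the 228 calls in control became 763 with DESeq2, 433 in 1 fit of 40 libraries, 81 without shallow libraries and 41 with the replicate block, and the 1972 over the 5 treatments became 1282 with the stricter filter and 742 and 1249 within plate index 1 and 2. DESeq2 called 21, 37, 56 and 58 genes for the stimuli in ES-astrocytes, 11 for any treatment and 33 for TGF-β2 against the other stimuli, where edgeR called 0. Whether libraries of the same letter came from 1 co-culture is not given in the sources used here. Correlations of deviations between same-letter libraries were −0.229 to 0.427, and with the replicate block 27 members were called over the 5 treatments and Fbln5 lost its call in control. Leaving out shallow libraries was not run for IL-1α and TNF-α in ES-motor neurons, where no library would remain. Depth limits the ES-motor neurons most, where 3 counts were worth up to 458 CPM of the raw library total, before TMM scaling.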
